A study of Rattus norvegicus with 2 samples.

Results

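The levels of 10 genes of the integrated and genotoxic stress response were measured in rat skeletal muscle: the transcription factors Atf4 and Ddit3, the ATF4-responsive genes Asns, Trib3, Chac1, Ddit4 and Sesn2, and the p53-responsive genes Sesn1, Gadd45a and Cdkn1a. Their probes were found by gene symbol in the annotation, and they make up 10 of the 13337 genes that had a named probe. Each of the 10 had 1 probe, so the rule of taking a gene's brightest probe left nothing to choose.

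RNA came from muscle of male Wistar rats aged 8 to 10 weeks. Both samples came from rats made diabetic with streptozotocin, a toxin of pancreatic beta cells, so no muscle of non-diabetic rats is compared here. The sample labelled EA stands for electroacupuncture at the ST36 point of the lower leg, where the protocol text gives 5 min of needling followed by 60 min of current at 15 Hz and 10 mA. The other sample is labelled Mock. Both carry the same protocol text, so the handling of the Mock rats is not stated, nor are the muscle taken, the time from stimulation to sampling, or the number of rats pooled.

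There was 1 Illumina bead array per group. Precision is therefore limited by the number of arrays: the differences below carry no replicate check, standard error or p-value. The effect of stimulation cannot be told apart from other ways in which the samples differed. In whole muscle, fewer cells of a type and less RNA per cell also cannot be told apart.

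The integrated stress response begins when kinases that sense starvation for amino acids, protein misfolding in the endoplasmic reticulum, viral RNA or haem shortage phosphorylate the translation factor eIF2alpha. General translation then slows while the mRNA of the transcription factor ATF4 is translated better, so ATF4 protein can rise with little change in Atf4 mRNA. ATF4 switches on genes of amino acid supply and the transcription factor CHOP, encoded by Ddit3, and the phosphatase subunit GADD34, encoded by Ppp1r15a, closes the loop by removing the phosphate. The p53 pathway answers DNA damage and shares with it the sestrins, the GADD45 genes and the cell cycle inhibitor p21, encoded by Cdkn1a. In muscle several of these genes also respond to fasting, glucocorticoids and contraction.

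Detection was called from the deposited detection p, which on this kind of array ranks a probe against negative control beads and which moved in steps of 0.00121 here. The limit was set at a detection p under 0.01. Detection began at an intensity of 154 on Mock and 160 on EA, and intensities are in the arbitrary units of the deposited table. Of the 22523 probes, 6918 passed it for Mock and 7235 for EA. Background, taken as the intensity at a detection p near 0.5, was 117 for Mock and 122 for EA. Fold changes come from background-corrected, quantile-normalized signals, and differences are log2 EA minus log2 Mock. Over the 5047 genes detected on both arrays the median difference was -0.06, and the central 95% of genes lay between -0.67 and 0.91. Genes with several detected probes (65 genes, 136 probes) gave an SD of 0.30 per probe around the gene's own mean difference. This is scatter between probes on the same pair of arrays. No measure of scatter between arrays of a group was at hand.

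Ddit3 was the only one of the 10 genes to differ by 2-fold or more between the arrays, and it was 4.94-fold higher on EA. Atf4, Sesn1 and Gadd45a differed by less than the scatter between probes of a gene. Chac1 and Ddit4 were both about 1.5-fold lower on the EA array. Cdkn1a was detected only on the EA array, near the detection limit. Asns, Trib3 and Sesn2 were detected on neither array. In all, 6 of the 10 were detected on both arrays, and these 6 had a median difference of -0.08, with 3 above 0 and 3 below. Of all 5047 genes measured on both, 2.08% were higher on EA by 2-fold or more and 0.456% lower by 2-fold or more. Of the 6 genes, 1 was 2-fold higher and none 2-fold lower. Ddit3 alone lay outside the central 95% of genes. Chac1 and Ddit4 lay low within it, with 190 and 197 of the 5047 genes lower. Among all genes with a probe, 57.7% were detected on neither array and 3.09% on the EA array alone, so that 3 undetected genes of 10 is no more than the array as a whole shows.

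**Figure D1:**
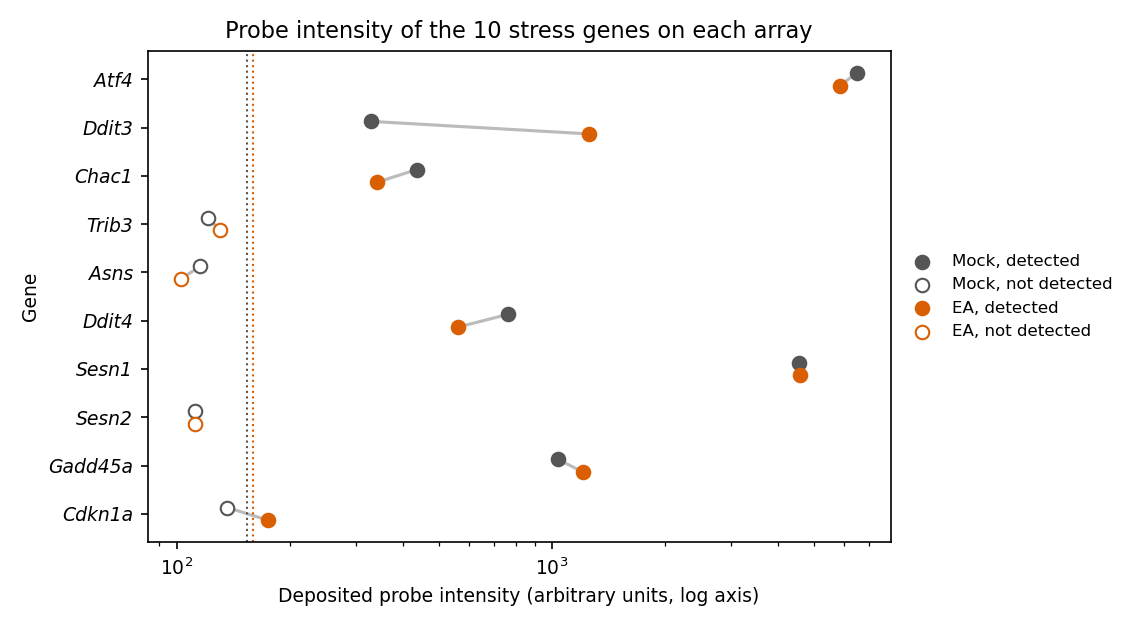
Deposited intensity of each gene's probe on the Mock array (grey) and the EA array (orange), on a log axis in arbitrary units; filled points were detected, open points were not, and the dotted lines mark the lowest detected intensity on each array (154 Mock, 160 EA). Ddit3 lay at 329 on the Mock and 1255 on the EA array, while Asns, Trib3 and Sesn2 stayed left of both lines.

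Atf4 encodes the central transcription factor of the response. Its probe gave an intensity of 6484 on Mock and 5833 on EA, far above the detection limit on both. The difference was -0.17 on the log2 scale, or 1.12-fold lower on the EA array, which is inside the scatter between probes. The measurement is of mRNA and does not show the level or activity of ATF4 protein.

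Ddit3 encodes CHOP, a C/EBP-family factor that ATF4 induces and that promotes cell death when stress in the endoplasmic reticulum lasts. Its intensity was 329 on Mock and 1255 on EA, both with a detection p listed as 0. The EA array was the higher by 3.81 times in raw intensity. After background correction the difference was 2.30, or 4.94-fold, and in the authors' deposited table the intensities were 540 and 1777, or 3.29-fold. Of the 5047 genes detected on both arrays, 9 had a larger difference than Ddit3 and 5037 lay below it. The genes with a difference nearest to that of Ddit3 were Klf4 at 2.29 and Klf2 at 2.28, Krüppel-like transcription factors, the salt-inducible kinase Sik1 at 2.26, and Cd83, a surface protein of activated immune cells, at 2.22. With only 2 arrays, likeness here means a difference of similar size and nothing more.

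Chac1 encodes an enzyme that breaks down glutathione and is a known target of ATF4 and CHOP. Its intensity was 436 on Mock and 342 on EA, a difference of -0.59, or about 1.5-fold lower. Trib3, a pseudokinase induced by ATF4 and CHOP that binds AKT, gave 121 on Mock and 131 on EA, at detection p of 0.368 and 0.244. Asns, the asparagine synthetase and a standard marker of amino acid starvation, gave 116 and 103, at detection p of 0.548 and 0.937. Both probes sat at background on both arrays, so neither gene has a fold change here. Where Ddit3 was higher, Chac1 was not, and for Trib3 and Asns that can be said only of levels these probes could detect.

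The promoter windows of Ddit3, Chac1 and Trib3 are shown because, of the 10 genes, these held a match to a motif searched. All 10 genes had a window in the RefSeq promoter table (build GRCr8), running from 250 bases before to 50 after the annotated start. Both strands were searched for the core of the C/EBP-ATF response element (TGATGNAA), through which ATF4 acts, for the cyclic AMP response element (TGACGTCA), for the AP-1 site (TGAGTCA) and for the endoplasmic reticulum stress element (CCAAT and CCACG with 9 bases between). None of these overlapped in the 10 windows. Capitals mark the matches, and each line reads 5′ to 3′ on the gene's strand.
Ddit3, chr7:65001445-65001744, plus strand: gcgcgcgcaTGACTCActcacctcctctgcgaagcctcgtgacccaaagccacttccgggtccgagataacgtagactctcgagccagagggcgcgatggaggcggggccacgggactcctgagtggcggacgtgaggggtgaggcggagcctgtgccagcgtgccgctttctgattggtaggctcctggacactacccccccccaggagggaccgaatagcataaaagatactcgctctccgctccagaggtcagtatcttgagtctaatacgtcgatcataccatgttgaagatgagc
Chac1, chr3:126795881-126796180, plus strand: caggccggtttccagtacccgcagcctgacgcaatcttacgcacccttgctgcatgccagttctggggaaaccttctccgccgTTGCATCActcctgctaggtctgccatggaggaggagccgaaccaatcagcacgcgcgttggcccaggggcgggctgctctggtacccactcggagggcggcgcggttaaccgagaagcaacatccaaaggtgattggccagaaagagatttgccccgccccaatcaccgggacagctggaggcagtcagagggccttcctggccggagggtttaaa
Trib3, chr3:161275484-161275783, minus strand: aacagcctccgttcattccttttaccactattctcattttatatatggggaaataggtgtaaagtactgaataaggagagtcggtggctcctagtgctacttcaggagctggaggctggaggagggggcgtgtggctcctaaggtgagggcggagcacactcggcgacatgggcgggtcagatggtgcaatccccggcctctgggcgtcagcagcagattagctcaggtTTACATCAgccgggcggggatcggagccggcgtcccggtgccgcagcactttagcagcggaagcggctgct

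The C/EBP-ATF core stood in 2 of the 10 windows, those of Chac1 and Trib3, against 3.82% of all 27457 windows. In Chac1 it began 167 bases before the annotated start and in Trib3 21 bases before it, and in both it lay on the opposite strand, so it reads as TTGCATCA and TTACATCA above. The window of Ddit3 held no C/EBP-ATF core and 1 AP-1 site, read as TGACTCA 241 bases before the start, a motif found in 4.53% of all windows. The cyclic AMP element (1.91% of windows) and the endoplasmic reticulum stress element (0.0765%) had no exact match in the 10. Sites that differ from the searched letters by 1 base were not counted. The windows shown hold such near matches. In Ddit3 there is a near match to the endoplasmic reticulum stress element, on the opposite strand. Chac1 and Trib3 hold near matches to the C/EBP-ATF core. The share of all windows with a near match was not computed. A match describes letters in a window and is not a measured binding site, and a window without a match says nothing about sequence outside it. Whether any match bears on the level of its gene in these samples was not tested.

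Ddit4 and the sestrins restrain mTORC1, the kinase complex that drives protein synthesis. Ddit4, also called REDD1, acts through the TSC complex and responds to ATF4, hypoxia and glucocorticoids. Its intensity was 762 on Mock and 563 on EA, a difference of -0.58, or about 1.5-fold lower. Both Ddit4 and Chac1 lay inside the central 95% of genes, with 197 and 190 of the 5047 genes lower than they were. Sesn1, a p53-responsive sestrin common in muscle, gave 4562 and 4569, and its difference of 0.02 was the smallest of the group. Sesn2, the sestrin that ATF4 induces and that senses leucine, gave 112 on both arrays, at detection p of 0.663 and 0.815, so no fold can be given.

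Gadd45a and Cdkn1a are growth arrest genes that p53 and ATF4 can induce, and both rise in denervated muscle. Gadd45a, which binds the kinase MEKK4 and DNA repair proteins, gave 1036 on Mock and 1206 on EA, a difference of 0.22, or 1.16-fold higher. Cdkn1a gave 137 on the Mock array at a detection p of 0.0824 and 175 on the EA array at a detection p of 0.00606. Set against the lowest detected signal of the Mock array, Cdkn1a was at least 1.15-fold higher on EA, a bound of 0.21 on the log2 scale. The bound ranged from 0.08 without background correction to 0.59 with a detection limit of 0.05, so the size of the difference was not settled.

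**Figure D2:**
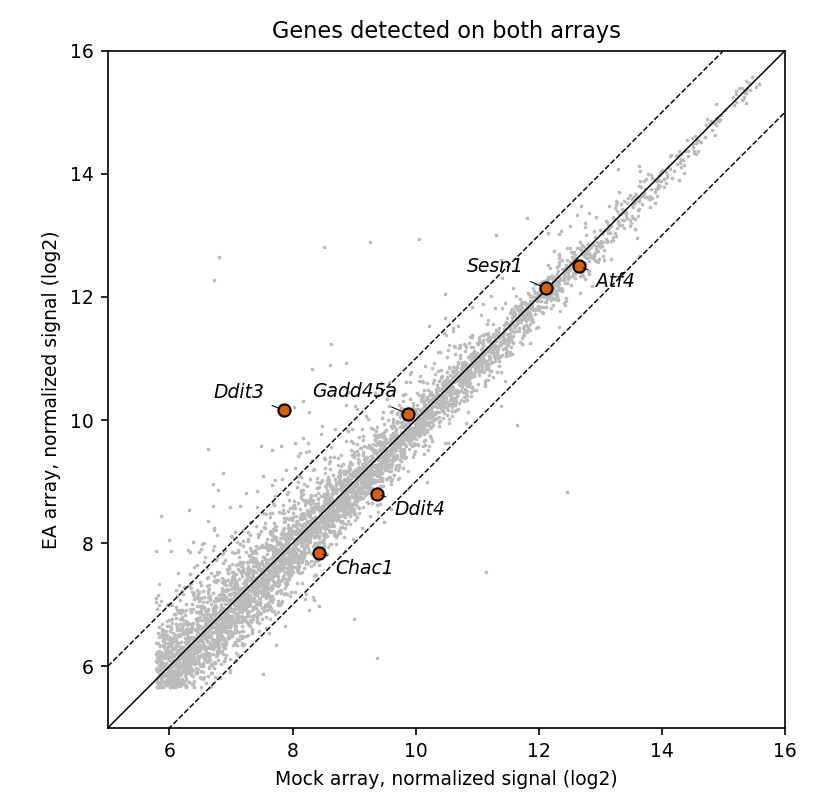
Normalized log2 signal of the 5047 genes detected on both arrays (grey points), Mock on the horizontal and EA on the vertical axis, with the 6 detected stress genes in orange; the solid line marks equality and the dashed lines a 2-fold difference. Ddit3 lies above the upper dashed line at 7.86 on the Mock and 10.16 on the EA array, and the other 5 lie between the dashed lines.

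The alternatives kept Ddit3 past 2-fold and kept the other 5 detected genes short of it. Ddit3 ranged from 1.72 with the authors' values to 2.30, Ddit4 from -0.74 to -0.46 and Chac1 from -0.71 to -0.40. Atf4 lay between -0.36 and -0.16 and Gadd45a between 0.03 and 0.22. Sesn1 changed sign, from 0.02 to -0.20 under 75th percentile scaling and to -0.09 with scaling to the median of the detected probes. The former lowered the median of all genes by a further 0.14.

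**Figure D3:**
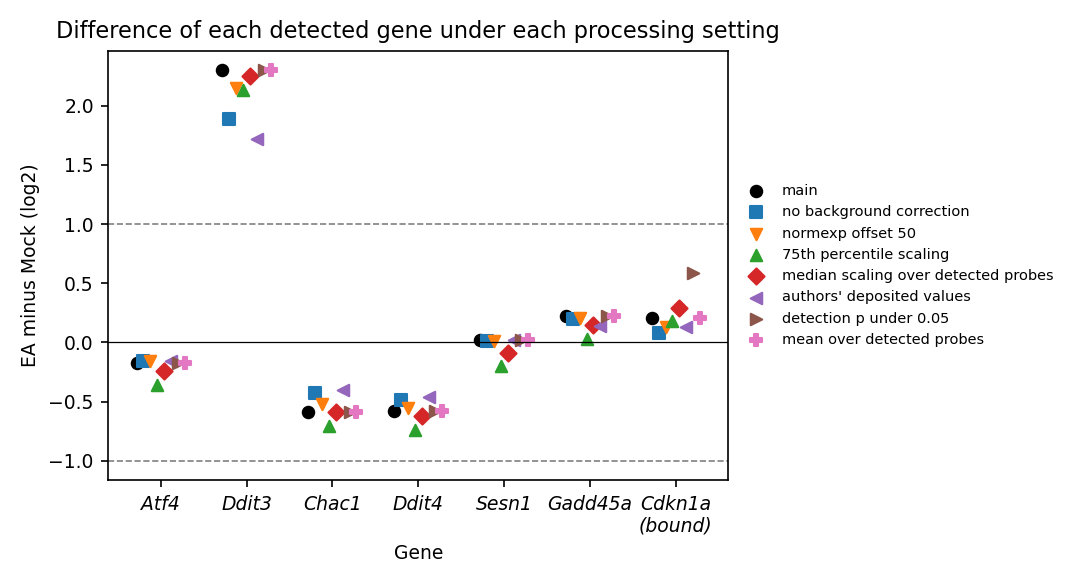
Difference between the arrays (log2, EA minus Mock) for the 6 genes detected on both arrays and the lower bound for Cdkn1a, with 1 symbol per processing setting; dashed lines mark 2-fold. Ddit3 lies between 1.72 and 2.30 in every setting shown, and the remaining genes lie inside the dashed lines.

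Other genes of the pathway were read from 11 lists, which held 168 genes besides the 10. Of these, 142 had a named probe and 89 were detected on both arrays. Their median difference was -0.04, against -0.06 for all genes. Higher on EA by 2-fold or more were 3 of the 89, or 3.37% against 2.08% of all genes, and none was 2-fold lower. The 3 were Ppp1r15a, Gadd45b and Ccng2. Of the genes detected on 1 array only, Atf3, Slc6a9 and Tsc1 were detected on the EA array and Cars1 and Aldh18a1 on the Mock array.

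Upstream of ATF4, the eIF2 kinases were mostly out of range. Eif2ak1, which senses haem shortage, was detected on both arrays at 1068 and 989, a difference of -0.16. The kinases PKR (Eif2ak2), PERK (Eif2ak3) and GCN2 (Eif2ak4) were detected on neither array. The subunits of eIF2 and of its exchange factor eIF2B were detected on both arrays, 8 of 8, with a median of 0.05, none 2-fold different, and a range from Eif2b2 at -0.24 to Eif2s2 at 0.30.

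Ppp1r15a was the member of the eIF2alpha phosphatase that stood out. GADD34, which it encodes, directs the phosphatase PP1 to eIF2alpha. Its intensity was 383 on Mock and 957 on EA, 2.90-fold higher on EA, with 1.18 on the log2 scale in the authors' deposited table. Ppp1r15b, which encodes the constitutive counterpart, was detected on neither array, and the catalytic subunits Ppp1ca, Ppp1cb and Ppp1cc lay at -0.29, -0.07 and 0.24.

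Among the transcription factors, Atf3 was higher on the EA array, as Ddit3 was. Atf3 is a stress-induced repressor and activator downstream of ATF4, and also an early response gene. Its intensity was 143 on the Mock array, at a detection p of 0.0388, and 665 on the EA array. The difference from the Mock detection limit was 3.30 on the log2 scale, and its size depended on the background correction, with 2.02 when none was made and 2.22 in the authors' deposited values. The direction was the same in each. Nupr1, a small stress-induced chromatin protein, gave 369 and 667, a difference of 0.99 that lay just short of 2-fold. Of the others, Cebpb and Cebpg, which encode dimer partners of CHOP, differed by -0.03 and -0.09, Atf5 by 0.24 and Nfe2l2, the antioxidant regulator NRF2, by 0.21. The list had a median of 0.21 over 7 genes detected on both arrays, Ddit3 and Atf4 included.

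Many of the ATF4 targets in the lists of regulators and of amino acid supply were not detected. The same held for the array as a whole, where 57.7% of all genes with a probe were detected on neither array. In the list of regulators and secreted factors, 5 of 12 genes with a probe were detected on both arrays, none was 2-fold different, and the median was -0.06. Its highest was Eif4ebp1, an inhibitor of translation initiation, at 0.18, and its lowest Chac1. The stress hormones Fgf21 and Gdf15 were detected on neither array. In the list of amino acid synthesis and transport, 5 of 19 were detected on both arrays, the median was -0.20, and 12 were detected on neither, among them Phgdh, Slc7a11 and Slc7a5. Shmt2, the mitochondrial serine hydroxymethyltransferase, was lowest at -0.53, and Slc3a2, the heavy chain of amino acid exchangers, highest at 0.18. Slc6a9, a glycine transporter, was detected only on the EA array (162, against 138 on the Mock array) and Aldh18a1, an enzyme of proline synthesis, only on the Mock array (164, against 158 on the EA array), in both cases at the edge of detection.

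Cytosolic aminoacyl-tRNA synthetases, which charge tRNAs and many of which ATF4 induces, had a median of -0.03 over 15 genes, with 5 above 0 and 10 below, where 58.5% of all genes lay below 0. They ran from Eprs1 at -0.55 to Qars1 at 0.62. Cars1 was detected on the Mock array at 196 and not on the EA array at 150, and its difference from the EA detection limit was -0.99, against -0.41 without background correction and -0.64 in the authors' deposited values. Genes of the IRE1 and ATF6 branches of the unfolded protein response, which act beside PERK when proteins misfold in the endoplasmic reticulum, had a median of -0.14 over 18 genes, 13 of them below 0 against the same 58.5% of all genes. None was 2-fold different. The disulphide isomerase Pdia4 was lowest at -0.70, the chaperone Hspa5 (BiP) highest at 0.15, and Xbp1, whose mRNA IRE1 splices, lay at -0.06. These arrays do not measure splicing of Xbp1.

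**Figure D4:**
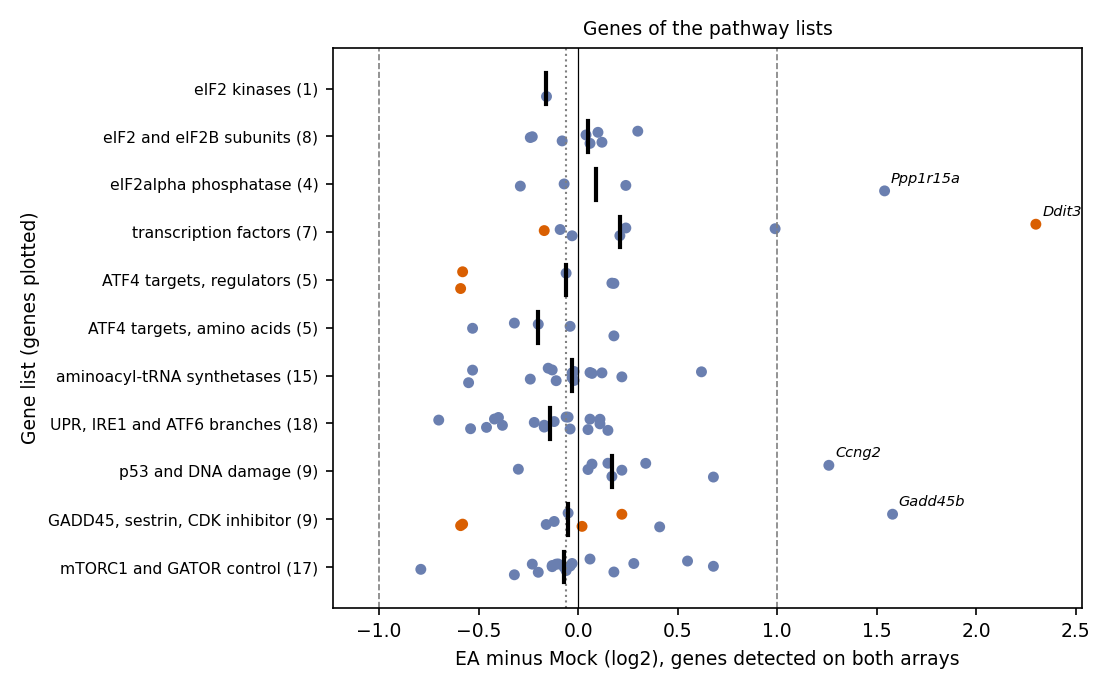
Difference between the arrays (log2, EA minus Mock) of genes detected on both arrays in the 11 pathway lists, with the 10 stress genes in orange, a black bar at each list's median, a dotted line at the median of all genes (-0.06) and dashed lines at 2-fold; a gene in several lists is drawn in each. Ddit3, Gadd45b, Ppp1r15a and Ccng2 are the genes to the right of the upper 2-fold line.

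On the p53 side, 9 of 20 genes with a probe were detected on both arrays, with a median of 0.17. Of these 9, 8 lay above 0, where 58.5% of all genes lay below 0. Under 75th percentile scaling the median of the list was 0.02 and that of all genes -0.19. Ccng2, a cyclin G that restrains the cell cycle and that FOXO factors induce, was 2.39-fold higher, at 154 on Mock and 247 on EA. The Mock value lay at the edge of detection, with a detection p of 0.0097. The difference fell short of 2-fold in the authors' deposited table, at 0.78 on the log2 scale, and without background correction, at 0.57. Mdm2, the ubiquitin ligase that p53 induces and that degrades p53, differed by 0.22 and Ccng1, a direct p53 target, by 0.17. Aen, a p53-induced nuclease, was lowest at -0.30. Bax, Pmaip1 and Fas, which promote cell death, were detected on neither array.

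Among the relatives of the growth arrest genes that were detected on both arrays, Gadd45b lay farthest from Gadd45a. Gadd45b, the family member induced by growth factors and inflammatory signals, was higher on the EA array by 1.58 on the log2 scale, at intensities of 176 and 348. The Mock value was not far above the detection limit, with a detection p of 0.00364. The difference fell short of 2-fold in the authors' deposited table, at 0.99, and without background correction, at 0.89. Gadd45g differed by 0.41, Gadd45a by 0.22, and the cell cycle inhibitor Cdkn1b by -0.16. Sesn3, Trib1 and Cdkn1c were detected on neither array, and Trib2 lay at -0.05. Of the genes by which Ddit4 and the sestrins act on mTORC1, 17 of 21 with a probe were detected on both arrays, none was 2-fold different, and the median was -0.07. Their range ran from Nprl3, a subunit of the GATOR1 complex, at -0.79 to Eif4ebp2, a translation inhibitor, at 0.68. Tsc1, whose product forms the TSC complex with TSC2, passed detection only on the EA array (168, against 153 on the Mock array), while Tsc2 lay at -0.07 and Mtor at -0.06.

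Markers of the muscle fibre were detected on both arrays, 15 of 15 with a probe, with a median of 0.02. Myh2, the myosin of fast oxidative fibres, was lowest and farthest from 0 at -0.99, and Myh4 was highest at 0.70. Most of the fibre markers were near the top of the intensity range, where bead arrays can saturate. The medians of several other marker lists were, like Ddit3, higher on the EA array. Fibroblast and matrix markers had a median of 1.37 over 9 of 10 genes, with Postn highest at 2.07 and Lum lowest at 0.08. Of these 9, 6 were at least 2-fold higher, against 2.08% of all genes. Their summed normalized signal was 10190 on Mock and 18820 on EA. Thy1 was the marker of that list detected on neither array. Endothelial markers had a median of 0.61 over 6 of 8 genes (summed signal 1228 and 2112, with Cdh5 and Tek not detected). They were uneven, with Sox17 highest at 1.48, Emcn and Vwf at 0.21 and 0.19, and Egfl7 lowest at -0.30. Erythrocyte markers had a median of 0.70 over 5 of 8 (summed signal 19910 and 32460, with Alas2, Hba-a2 and Slc4a1 not detected). The globins were higher, with Hbb-b1 highest at 0.89, while Gypc and Ahsp lay below 0 at -0.23 and -0.15. For macrophages and leukocytes the median was 0.46 over 4 of 8, with C1qc highest at 0.98, C1qa lowest at 0.01 and a summed signal of 1025 and 1469. In that list Ptprc was detected on neither array, Cd14 and Mrc1 only on the EA array, and Tyrobp only on the Mock array. The part of these cells in the signal of Ddit3, Ppp1r15a, Atf3 and Gadd45b was not tested.

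The remaining marker lists were thinner. Of the 6 neutrophil markers, S100a8 was detected only on the EA array and the other 5 on neither array. Adipocyte markers had a median of -0.11 over 3 of 5 genes, with Cfd at 0.85, and Schwann cell and nerve markers -0.01 over 2 of 5, with Cnp at -0.61. Of the smooth muscle and pericyte markers with a probe, Tagln at 1.18 was detected on both arrays and Cnn1 and Rgs5 on neither.

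**Figure D5:**
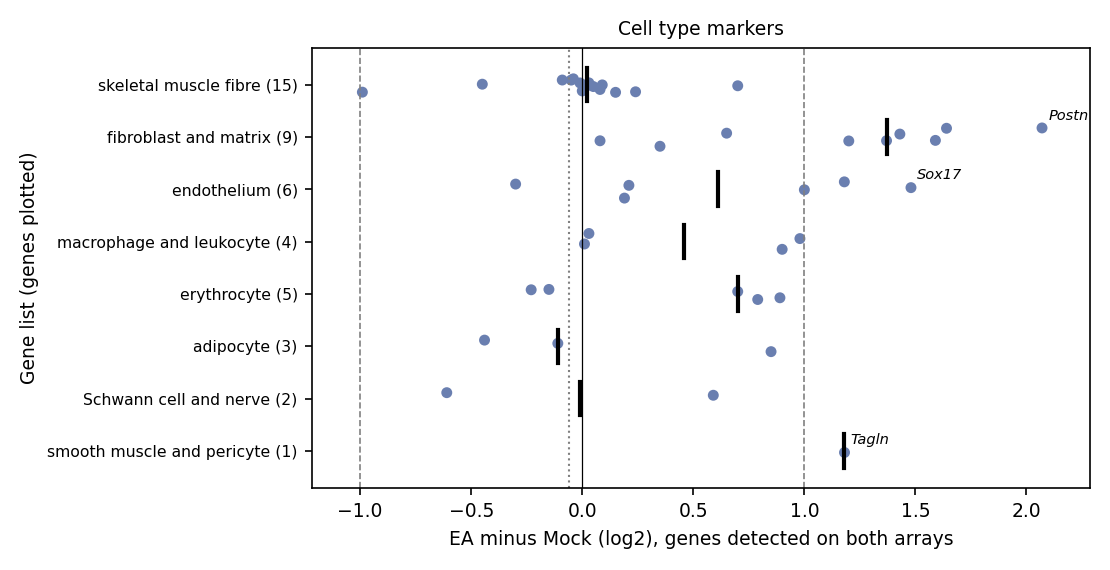
Difference between the arrays (log2, EA minus Mock) of cell type markers detected on both arrays, with a black bar at each list's median, the highest gene named where it passes 2-fold, a dotted line at the median of all genes (-0.06) and dashed lines at 2-fold. Fibroblast and matrix markers centre on 1.37 and muscle fibre markers on 0.02.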

How the data were processed

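Total RNA was extracted from muscle with an RNeasy kit and labelled as biotinylated cRNA, per the labels' protocols. The deposited non-normalized table holds 22523 probes, each with an intensity and a detection p-value per array, per the file headers. Each p-value column was taken with the intensity column before it, and it fell as that intensity rose. The authors' series table holds intensity values of the same arrays, normalized by a method not given in the sources used here, and served as an alternative. Scanner software and bead counts are not stated either.

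The nec function of limma corrected the background from the detection p-values (offset 16), followed by quantile normalization over all probes and log2 (R 4.3.3, limma 3.58.1, Python 3.11.15, pandas 2.3.3). Probes were named through the platform annotation, updated by gene identifier against RefSeq GRCr8: 13752 by identifier, 5 by accession, and 36 kept the platform symbol, while 8730 probes had no name here. A gene detected on 1 array received a bound, its signal against the higher of the dim probe and the lowest detected signal of the dim array. Steps were tested on simulated data. The members and lists were chosen with earlier results of these data known. The text names all 10 genes and, from each pathway list, members past 2-fold or detected on 1 array, otherwise its extremes, plus the 4 genes nearest to Ddit3. From each marker list it names the gene farthest from 0. Further members named for their role, such as undetected kinases and markers that went the other way, were added after their values were seen. Alternatives were the background correction, scaling, source table, detection threshold, probe choice and fold threshold. Probe sequences were not used here.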

Additional observations from a re-analysis of the deposited data

How the results depend on the processing

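Of 49 recomputed differences of the 7 detected stress genes, 46 moved by less than the probe scatter of 0.30. The exceptions were Ddit3, at 1.89 without background correction and 1.72 with the authors' values, and the bound of Cdkn1a, at 0.59 with a detection p under 0.05, since the bound's floor falls with that threshold. Among the stress genes, 1 was 2-fold higher under every alternative and none 2-fold lower. At 1.5-fold 1 was lower, Chac1, with Ddit4 just short of that line. At that fold, 196 of the 5047 genes detected on both arrays were lower and 317 higher. Of the other pathway genes, 3 were 2-fold higher, against 1 without background correction or with the authors' values and 7 at 1.5-fold, and the counts lower were 0, 1 with a detection p under 0.05 and 2 at 1.5-fold. Of all genes, 105 were higher and 23 lower (82% of the 2-fold differences higher). They numbered 53 and 8 if background was left in, 47 and 7 with the authors' values, 317 and 196 at 1.5-fold, 91 and 36 (71.7% higher) with 75th percentile scaling, and 123 and 35 with a detection p under 0.05. Of 119 recomputed list medians, 117 moved by less than the probe scatter; the fibroblast and matrix median fell to 0.95 without background correction and to 1.01 with the authors' values. Beyond the bound, the cause of these shifts was not tested. No paired analysis was possible because each group has 1 sample. Probes near background, such as those of Cdkn1a, Asns, Trib3 and Sesn2, cannot show small differences.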
